A study of Homo sapiens with 3 samples.

Results

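The miR-106b-25 and miR-106a-363 clusters are the 2 paralogs of the miR-17/92 cluster in the human genome. Their main strands were taken by exact probe name, which gave 7 microRNAs out of 2019 human microRNAs on the array: hsa-miR-106b-5p, hsa-miR-93-5p and hsa-miR-25-3p of the first cluster, and hsa-miR-106a-5p, hsa-miR-18b-5p, hsa-miR-20b-5p and hsa-miR-363-3p of the second (the prefix hsa-, for human, is left out below). They were measured in MCF12A, a line of breast epithelial cells that is immortal but does not form tumors, on 3 arrays stained with 1 dye (Cy5). There was 1 array each for cells kept for 4 weeks with acetaldehyde, cells kept for 4 weeks with ethanol, and unexposed control cells, so no test was possible and every value rests on 1 array per group. The sample characteristics give 1 mM acetaldehyde and 2.5 mM ethanol, whereas the treatment protocol gives 1% and 2.5%. All cells grew as monolayers in DMEM/F12 with 2.5% horse serum, insulin from cattle, cholera toxin, hydrocortisone and epidermal growth factor. A soft agar clone described in the protocol is assigned to none of the 3 arrays by the labels.

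A microRNA guides an Argonaute protein to messenger RNAs, chiefly through its seed, bases 2 to 8, and lowers their stability and translation. The miR-17/92 cluster and its paralogs are polycistronic: 1 primary transcript is cut into several hairpins. They are known for promoting proliferation and survival, with CDKN1A (p21), BCL2L11 (BIM) and E2F1 among the targets of their members, and MYC and E2F factors among their activators. The miR-106b-25 hairpins lie in an intron of MCM7, a subunit of the replicative DNA helicase, and are made from its transcript.

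The mature sequences are shown because their seeds divide the 7 members into 3 groups, and because near-identity with miR-17/92 bears on what a probe can tell apart. They are the target sequences in the deposited array files, 5′ to 3′, with the seed in capitals. All 7 matched RefSeq (GRCh38.p14) base for base, and all lie on the minus strand.
miR-106b-5p: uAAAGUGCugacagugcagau
miR-93-5p: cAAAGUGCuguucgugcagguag
miR-106a-5p: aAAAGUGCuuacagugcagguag
miR-20b-5p: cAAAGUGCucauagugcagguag
miR-18b-5p: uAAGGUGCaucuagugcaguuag
miR-25-3p: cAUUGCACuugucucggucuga
miR-363-3p: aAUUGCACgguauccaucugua

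In RefSeq the first cluster lies at chr7:100094043-100094063 (miR-106b-5p), chr7:100093815-100093837 (miR-93-5p) and chr7:100093571-100093592 (miR-25-3p), and its 3 hairpins span 515 bases, all inside MCM7. The second cluster holds 6 hairpins in 901 bases of the X chromosome, with miR-106a-5p at chrX:134170244-134170266, miR-18b-5p at chrX:134170084-134170106, miR-20b-5p at chrX:134169850-134169872 and miR-363-3p at chrX:134169382-134169403. Its other 2 hairpins give miR-19b-3p and miR-92a-3p, whose mature sequences are also made from miR-17/92 on chromosome 13.

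The nearest relatives in miR-17/92 are shown for comparison with the 7 sequences above.
miR-17-5p: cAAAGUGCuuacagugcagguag
miR-20a-5p: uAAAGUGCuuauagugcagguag
miR-18a-5p: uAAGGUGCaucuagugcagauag
miR-92a-3p: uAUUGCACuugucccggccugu
The smallest number of base changes, insertions or deletions that turns 1 sequence into the other was 1 between miR-106a-5p and miR-17-5p and 1 between miR-18b-5p and miR-18a-5p. It was 2 between miR-20b-5p and either miR-20a-5p or miR-17-5p. The chromosome 7 members stood farther off: 3 between miR-93-5p and miR-17-5p, 5 between miR-106b-5p and miR-17-5p, and 4 between miR-25-3p and miR-92a-3p. For miR-363-3p the nearest sequence outside both clusters was miR-367-3p, at 7.

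A microRNA was called detected on an array when its 4 spots averaged more than the 1368 empty spots' median plus 3 SDs and at least 50% of the spots passed that level. For acetaldehyde, ethanol and control the level was 98.8, 243 and 146, and 1430, 347 and 775 microRNAs passed it. Of the 7 members 6 were detected on all 3 arrays. All 4 epithelial markers (miR-200c-3p, miR-141-3p, miR-205-5p and miR-203a) were detected on every array. Of 5 mesenchymal markers, 4 passed on the acetaldehyde array and 2 on each of the other two, and of 4 blood cell markers 2 passed on the acetaldehyde array alone. The liver marker miR-122-5p passed on none. The acetaldehyde array had the lowest detection level, and the part of this in those counts was not tested.

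miR-363-3p was the member that was not detected. Its spots read 67.8 to 117 with acetaldehyde, 94.2 to 107 with ethanol and 79.7 to 95.5 in control cells, against empty-spot medians of 65.8, 148 and 105.6. One of its 4 acetaldehyde spots was above the level, and no fold is given for it. The hairpin is shown because neither of its arms, in capitals, was detected on any array.
MIR363 (chrX:134169378-134169452, minus strand, RefSeq, GRCh38.p14): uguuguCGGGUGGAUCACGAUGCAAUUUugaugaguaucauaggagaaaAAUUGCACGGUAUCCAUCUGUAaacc

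**Figure D1:**
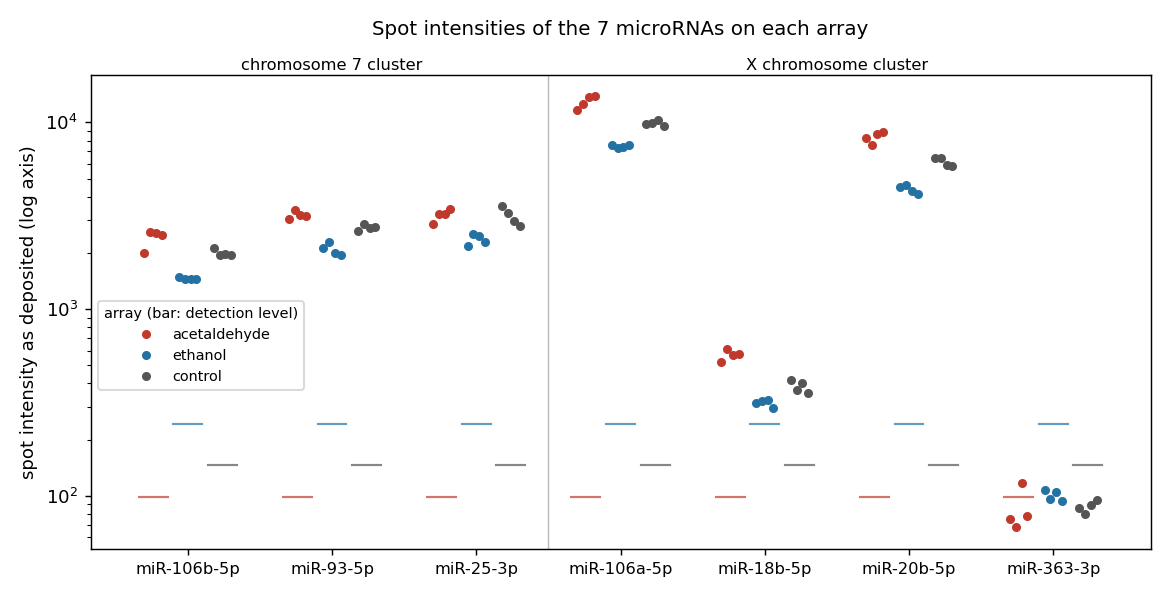
Intensity of each of the 4 spots of the 7 microRNAs as deposited (log axis) on the acetaldehyde, ethanol and control arrays, with a short bar at each array's detection level. The 6 detected members lie above the bars, miR-363-3p lies below them but for 1 acetaldehyde spot, and for all 6 the ethanol spots lie below both other arrays.

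Against control, all 6 detected members were higher on the acetaldehyde array, and none reached 2-fold (1.03% of all microRNAs detected on both arrays did). Log2 differences of quantile-normalized intensity ran from 0.17 (miR-25-3p) to 0.82 (miR-18b-5p), with a median of 0.47. The median over all 774 microRNAs detected on both arrays was -0.07, and 43.3% of those were higher. Over the 242 brighter ones, which reached 500 on at least 1 of the 2 arrays after normalization, the median was -0.02. In RNA of whole cultures, fewer cells of a kind and less RNA per cell cannot be told apart. The direction depends on what the arrays are scaled to. It was the same under 11 of 12 alternative settings, with medians of 0.33 to 0.64, and opposite, at -0.32, with the arrays scaled on the spike calibration probes. Without normalization the members' median was 0.33, while the median over all 2019 probes, detected or not, lay 0.31 higher on the acetaldehyde array. Of those probes 38.4% were detected in control cells. The microRNAs detected on all 3 arrays went the other way. Scaling to their median raised the members' median from 0.33 to 0.64, so before scaling their own median was lower with acetaldehyde. Of 43 spike probes 41 were brighter on the acetaldehyde array before normalization, with differences between -0.33 and 1.56, whereas the 6 probes for 5S ribosomal RNA had a median difference of -0.16.

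The 3 detected X chromosome members had the largest differences at these settings. On the deposited normalized values the order of the members turned: miR-106b-5p (0.64) lay above miR-20b-5p (0.55), and miR-93-5p (0.52) above miR-106a-5p (0.37). miR-20b-5p, one of the cluster's miR-17 relatives, had a normalized intensity of 8528 with acetaldehyde, 4474 with ethanol and 5419 in control cells. Its 4 spots as deposited read 7586 to 8880, 4127 to 4603 and 5813 to 6472 in the same order, and no spot of 1 array overlapped those of another. It stood 1.57-fold above control with acetaldehyde, a log2 difference of 0.65 ± 0.18 (SD over 4 spot positions on 1 array per group, as for every ± below). That SD measures printing and reading of spots and not the spread between cultures.

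miR-18b-5p differs in its seed from the miR-17 group. Its normalized intensity was 595 with acetaldehyde, 366 with ethanol and 337 in control cells. The acetaldehyde spots (521 to 608) lay above the control spots (357 to 417), and the ethanol spots (294 to 326) lay only 1.29 times above their detection level on average. The difference of acetaldehyde from control was 0.82 ± 0.19, or 1.76-fold. With the empty-spot median subtracted in place of the model-based correction it read 1.12, the only setting that brought a member to 2-fold above control.

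miR-106a-5p, the first hairpin of its cluster, had normalized intensities of 13016 with acetaldehyde, 7909 with ethanol and 9018 in control cells. Its acetaldehyde spots (11636 to 13788) did not overlap its control spots (9605 to 10285), and the difference was 0.53 ± 0.12. All 3 detected X chromosome members were higher at all 4 spot positions, beside 26.9% of all 774 microRNAs.

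The chromosome 7 members come next. miR-106b-5p, which targets CDKN1A, had normalized intensities of 2433 with acetaldehyde, 1535 with ethanol and 1827 in control cells. The acetaldehyde difference was 0.41 ± 0.24, and 1 of its 4 acetaldehyde spots (1993, the others 2492 to 2594) lay within the control range of 1942 to 2117. After normalization each of its 4 positions was higher than the same position on the control array.

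miR-93-5p, of the same seed, had normalized intensities of 3253, 2212 and 2511 on the acetaldehyde, ethanol and control arrays. Its difference of 0.37 ± 0.02 had the smallest spread over positions of the 6. Its acetaldehyde spots as deposited (3042 to 3393) were all above the control spots (2633 to 2860). Those readings are unscaled. Without normalization its difference was 0.23, beside 0.31 for the median over all microRNA probes, detected or not. miR-25-3p, which carries the miR-25 seed and is known to target BCL2L11, had normalized intensities of 3165 with acetaldehyde, 2553 with ethanol and 2818 in control cells. Its difference of 0.17 ± 0.26 was within its spread over positions, where single positions ran from -0.18 to 0.44. Its spots as deposited also overlapped (2855 to 3433 with acetaldehyde and 2801 to 3561 in control cells).

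By count, 2 of the 6 members (miR-18b-5p and miR-20b-5p) were at least 1.5-fold higher with acetaldehyde, where 7.75% of all 774 were, and 0 were at least 1.5-fold lower (8.14% of all). Higher at all 4 spot positions were 5 of the 6, all but miR-25-3p, against the same 26.9%. All 6 are among the 242 brighter microRNAs, where such differences were more common. Of those 242, 39 were at least 1.5-fold higher, 26 at least 1.5-fold lower and 75 higher at all 4 positions. Of the 774 microRNAs, 21 (2.71%) lay above miR-18b-5p, 39 above miR-20b-5p, 75 above miR-106a-5p, 109 above miR-106b-5p, 124 above miR-93-5p and 227 (29.3%) above miR-25-3p. The count at 1.5-fold was 1 without normalization or with the first block of spots alone, 4 when the arrays were scaled to the median of the detected microRNAs and 0 with scaling on the spikes.

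**Figure D2:**
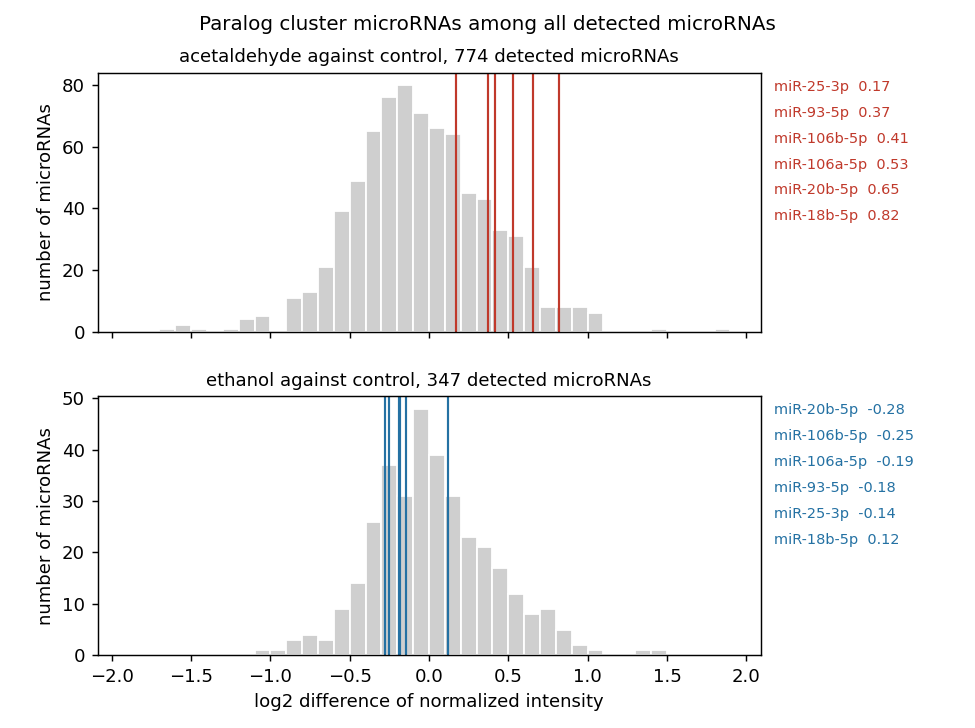
Number of microRNAs per bin of log2 difference of normalized intensity for acetaldehyde against control (774 detected microRNAs) and ethanol against control (347), with a line at each of the 6 detected members. The members lie between 0.17 and 0.82 in the acetaldehyde panel and between -0.28 and 0.12 in the ethanol panel.

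Against the same control array, the ethanol differences of the members were small. miR-20b-5p stood at -0.28 ± 0.03, miR-106b-5p at -0.25 ± 0.04, miR-106a-5p at -0.19 ± 0.06 and miR-93-5p at -0.18 ± 0.09, and each of these 4 was lower at all 4 spot positions, beside 31.1% of the 347 microRNAs detected on both arrays. miR-25-3p stood at -0.14 ± 0.20 and was lower at 3 positions. miR-18b-5p, at 0.12 ± 0.09, was the member on the higher side.

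The median of the 6 was -0.19, against 0.00 over all 347 and -0.04 over the 236 brighter ones. Lower by any amount were 5 of 6, beside 47.8% of all, and higher was 1, beside 49.0%. No member reached 1.5-fold in either direction, as 8.65% of all did on the higher and 3.46% on the lower side. The sign of that median follows the scaling. It was -0.41 without normalization, where the median of all microRNA probes, detected or not, lay 0.13 lower on the ethanol array (a shift of -0.13). It was 0.0094 when the arrays were scaled to the median of the microRNAs detected on all 3 arrays, so those had shifted about as far as the members. On the deposited normalized values the members' median was -0.046.

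Set directly against each other, the exposures gave the widest gap by the members' median and for each member but miR-18b-5p (0.70, against 0.82 from control), although compound and dose both differ. All 6 members were higher with acetaldehyde than with ethanol (44.4% of all 347 were), and at all 4 spot positions (31.4% of all). miR-20b-5p differed by 0.93 ± 0.17 (1.91-fold), miR-106a-5p by 0.72 ± 0.12, miR-18b-5p by 0.70 ± 0.11, miR-106b-5p by 0.66 ± 0.20, miR-93-5p by 0.56 ± 0.08 and miR-25-3p by 0.31 ± 0.10.

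At least 1.5-fold higher with acetaldehyde than with ethanol were 4 of the 6, where 14.7% of all 347 were, and none reached 2-fold (2.02% of all did). Of the 240 that reached 500 on at least 1 of these 2 arrays, 48 were at least 1.5-fold and 7 at least 2-fold higher. The members' median was 0.68, against -0.10 over all 347 and 0.03 over the 240. It lay between 0.62 and 0.76 under the settings other than spike scaling, where it was 0.035. In 5 members the order of normalized levels was acetaldehyde, control, ethanol. In miR-18b-5p ethanol stood above control by 0.12. That difference turned to -0.32 without normalization, -0.11 with scaling on the 5S probes and -0.24 with scaling on the spike probes. For miR-25-3p the steps from control to either exposure were within the spread over positions.

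Grouped by seed, members and relatives lay as follows, with no test of the groups against each other. The miR-17 seed AAAGUGC is carried by 8 microRNAs of the array, 6 of them detected on all 3 arrays. All 6 were higher with acetaldehyde than control at all 4 positions, between 0.37 (miR-93-5p) and 0.65 (miR-20b-5p), with miR-17-5p at 0.59 ± 0.17 and miR-20a-5p at 0.44 ± 0.08, and all 6 were lower with ethanol, between -0.28 and -0.17. The other 2, miR-519d and miR-526b-3p, were not detected on the ethanol or control array. The ethanol signs of the detected 6 depend on the scaling. Scaled to the median of the microRNAs detected on all 3 arrays, miR-93-5p stood at 0.027, miR-106a-5p at 0.0084 and miR-17-5p at 0.021. There miR-106b-5p (-0.029) and miR-20b-5p (-0.072) stayed lower. The highest value of miR-20a-5p under any setting was 0.066.

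The miR-18 seed AAGGUGC is carried by 3, of which miR-18b-5p and miR-18a-5p were detected. miR-18a-5p differed from control by 0.97 ± 0.09 with acetaldehyde and by 0.09 ± 0.15 with ethanol, and had normalized intensities of 929, 505 and 475 on the acetaldehyde, ethanol and control arrays. Both stood highest with acetaldehyde, and neither was lower with ethanol at all 4 positions. Scaled on the 5S ribosomal RNA probes, the ethanol differences read -0.11 for miR-18b-5p and -0.15 for miR-18a-5p.

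The miR-25 seed AUUGCAC is carried by 6, of which 3 were detected. Beside miR-25-3p at 0.17, miR-92a-3p stood at -0.22 ± 0.10 and miR-92b-3p, encoded apart from all 3 clusters, at -0.01 ± 0.07 with acetaldehyde. With ethanol they stood at -0.36 ± 0.19 and -0.32 ± 0.09. The seed group's median with acetaldehyde was -0.01, against 0.49 for the miR-17 seed and 0.89 for the miR-18 seed. Several probes of a seed group share most of their bases, and cross-signal between them was not tested.

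**Figure D3:**
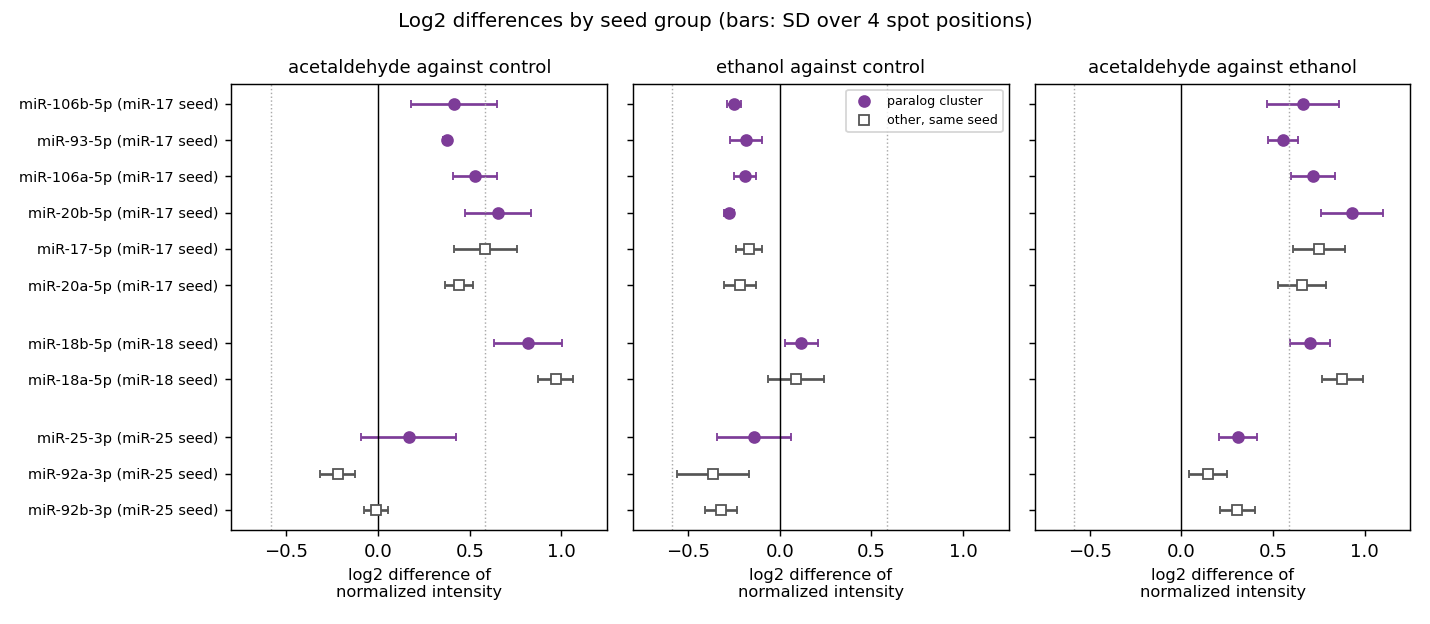
Log2 difference of normalized intensity of the detected microRNAs of 3 seed groups for acetaldehyde against control, ethanol against control and acetaldehyde against ethanol, with bars for the SD over 4 spot positions and dotted lines at 1.5-fold. Filled circles are the paralog cluster members and open squares the other microRNAs with the same seed. The miR-17 and miR-18 seed groups lie right of the miR-25 seed group in the acetaldehyde against control panel.

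The miR-17/92 cluster itself, the closest set by sequence, had a median of 0.62 over its 6 main strands with acetaldehyde and -0.05 with ethanol. Both medians include miR-19b-3p, whose 1.82 with acetaldehyde and 1.49 with ethanol hold a dark control spot (166, the others 3752 to 4069). Without that spot miR-19b-3p stood at 0.62 and 0.27. miR-19a-3p, which shares its seed with miR-19b-3p, stood at 0.65 ± 0.16 with acetaldehyde and 0.06 ± 0.05 with ethanol.

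Differences of pairs close in sequence are given side by side, followed by pairs farther apart. Against control, miR-106a-5p and miR-17-5p stood at 0.53 and 0.59 with acetaldehyde and at -0.19 and -0.17 with ethanol. miR-18b-5p and miR-18a-5p stood at 0.82 and 0.97 with acetaldehyde and at 0.12 and 0.09 with ethanol. miR-20b-5p and miR-20a-5p, 2 changes apart, stood at 0.65 and 0.44 with acetaldehyde and at -0.28 and -0.22 with ethanol. Between the exposures the member minus its relative came to -0.03 for miR-106a-5p, -0.18 for miR-18b-5p and 0.27 for miR-20b-5p against miR-20a-5p. miR-106b-5p minus miR-17-5p, 5 changes apart, came to -0.17 with acetaldehyde, -0.09 with ethanol and -0.09 between the exposures. In the same order, miR-93-5p minus miR-17-5p, 3 changes apart, came to -0.21, -0.02 and -0.19. For miR-25-3p minus miR-92a-3p, 4 changes apart, the values were 0.39, 0.22 and 0.17. The part of the signal on the miR-106a-5p, miR-18b-5p and miR-20b-5p probes that comes from their miR-17/92 relatives was not tested, and on these arrays the 2 sources cannot be told apart.

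The X chromosome cluster also has arms that no other cluster makes. Of these 6 (miR-106a-3p, miR-18b-3p, miR-20b-3p, miR-363-5p, miR-19b-2-5p and miR-92a-2-5p), and miR-363-3p, 0 of 7 were detected with ethanol, where 17.2% of all probes were, and 0 in control cells, where 38.4% were. With acetaldehyde, where 70.8% of all probes were detected, 2 were: miR-18b-3p with a mean spot of 152 and miR-20b-3p with 116, against a level of 98.8. Each of the 7 differs by at least 4 changes from every probe outside the 2 clusters. The 6 arms are passenger strands, which are usually scarcer than their guides, whereas miR-363-3p is a main strand. Whether the cluster is transcribed in these cells was not tested.

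On chromosome 7, 2 of the 3 other arms were detected in control cells. The hairpin of miR-106b is shown because both of its arms, in capitals, were detected.
MIR106B (chr7:100093993-100094074, minus strand, RefSeq, GRCh38.p14): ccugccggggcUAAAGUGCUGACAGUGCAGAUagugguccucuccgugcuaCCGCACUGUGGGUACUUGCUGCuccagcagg
miR-106b-3p had mean spots of 334, 233 and 332 on the acetaldehyde, ethanol and control arrays and was detected on the acetaldehyde and control arrays, with a difference of 0.02 ± 0.14 between them. On the ethanol array 1 of its spots read 125 and the others 257 to 279.

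miR-93-3p had mean spots of 300.2, 179 and 210 in the same order and was also detected on the acetaldehyde and control arrays. It stood 0.44 ± 0.18 above control with acetaldehyde, beside 0.37 for its guide miR-93-5p. Its control spots averaged only 1.43 times their detection level. For miR-106b-3p the difference was 0.02, beside 0.41 for its guide miR-106b-5p. miR-25-5p was detected on the acetaldehyde array only, with mean spots of 143, 135 and 135, and no fold is given. In all, 3 of 3 other arms of this cluster passed with acetaldehyde, 0 with ethanol and 2 in control cells, the order of the shares of all probes that passed (70.8%, 17.2% and 38.4%).

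The promoter of MCM7, the host gene of the chromosome 7 hairpins, is given as annotation. The RefSeq window reaches from 250 bases before to 50 after the outermost of 3 listed MCM7 starts (chr7:100101348-100101647, minus strand, GRCh38.p14). Capitals mark an E-box word, the kind that MYC binds, and E2F words.
MCM7 promoter: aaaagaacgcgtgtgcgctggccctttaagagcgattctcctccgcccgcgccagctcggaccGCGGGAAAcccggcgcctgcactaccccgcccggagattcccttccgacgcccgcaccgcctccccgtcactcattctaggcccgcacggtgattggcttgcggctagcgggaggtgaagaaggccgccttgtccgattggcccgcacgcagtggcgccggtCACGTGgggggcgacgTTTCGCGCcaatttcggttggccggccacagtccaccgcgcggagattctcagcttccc
The words searched on both strands were CACGTG, TTTCGCGC, TTTCCCGC, TTTGGCGC and TTTGCCGC, and no marked word overlaps another. CACGTG begins 25 bases and TTTCGCGC 9 bases before the start, and TTTCCCGC lies on the other strand at 187 bases before it. Of 35116 promoter windows of the same length 7.26% hold CACGTG, 3.31% hold at least 1 of the 4 E2F words and 0.308% hold both. A match is a description of letters, MCM7 messenger RNA was not measured on these arrays, and no relation between these words and the microRNA levels was tested.

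The microRNAs most like the members in pattern were found by the Euclidean distance between their 2 log2 differences from control and the members' medians (0.47 with acetaldehyde, -0.19 with ethanol). Over 235 candidates outside these clusters and miR-17/92, detected on all 3 arrays and reaching 500 after normalization on at least 1, the nearest was miR-301a-3p at 0.46 with acetaldehyde and -0.20 with ethanol. Next were miR-195-5p at 0.47 and -0.15, miR-361-5p at 0.45 and -0.08, miR-3607-3p at 0.58 and -0.15, and miR-186-5p at 0.33 and -0.24. These patterns rest on 3 arrays that share the control.

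**Figure D4:**
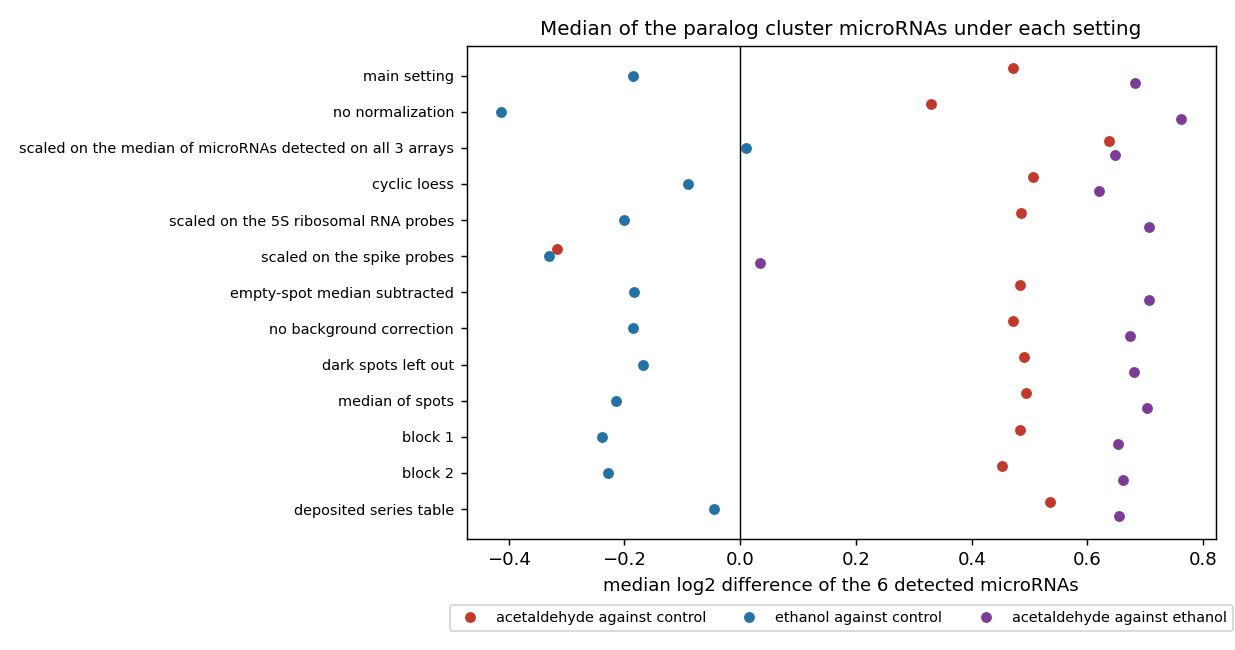
Median log2 difference of the 6 detected members for acetaldehyde against control, ethanol against control and acetaldehyde against ethanol, under the main setting and 12 alternatives. The acetaldehyde against control points lie right of 0 except with scaling on the spike probes, where the median is -0.32.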

How the data were processed

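Per the labels' protocols, 2 µg of total RNA per sample received a poly(A) tail and a Cy5-stained tag at a service provider. The deposited array files hold the median intensity of each spot, with no background column. The scanner, image software and method behind the deposited series table, which holds 1 normalized intensity per probe (column medians 26.2, 29.2 and 26.9 for acetaldehyde, ethanol and control), are not given in the sources used. Background was corrected with normexp (offset 50) on all spots in limma 3.58.1 under R 4.3.3. The log2 values were averaged over each probe's 4 spots, and quantile normalization used the 2019 microRNA probes. A spot was called dark below 50% of its probe's median net signal, for medians over 300. Sequences were compared by edit distance in Python 3.11.15 with pandas 2.3.3. The steps were tested on simulated arrays in which about as many microRNAs were raised as lowered. That test does not bear on the choice of scaling. The members and lists were chosen with earlier results of these data known. The text names the 7 members, the other arms of their hairpins, miR-17/92, microRNAs sharing a seed and the 5 nearest in pattern. Intensities were not compared between probes. The 3 arrays limit the precision.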

Additional observations from a re-analysis of the deposited data

How the results depend on the processing

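No paired analysis was possible because each group has 1 array. Over 432 single values (12 microRNAs, 3 comparisons, 12 alternatives), 320 moved by less than their SD over spot positions, 107 by more and 5 changed sign after being at least 1.5-fold. Those 5 did so with scaling on the spike probes, a setting chosen after seeing the data: miR-18b-5p (-0.011), miR-20b-5p (-0.20), miR-17-5p (-0.23) and miR-19a-3p (-0.24) for acetaldehyde against control, and miR-19a-3p (-0.0012) for acetaldehyde against ethanol. Under it the members' medians were -0.32 (acetaldehyde minus control), -0.33 (ethanol minus control) and 0.035 (acetaldehyde minus ethanol), and those of miR-17/92 were -0.23, -0.28 and 0.018. It left 0 members at least 1.5-fold higher in both acetaldehyde comparisons and put 1, miR-25-3p, at least 1.5-fold lower than control. The 30 spike probes used lay 0.64 higher (median) with acetaldehyde than in control cells, which sets that shift.

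Without normalization the miR-17/92 median was 0.41 with acetaldehyde and -0.36 with ethanol, the members' median was -0.41 with ethanol, and 1 member was at least 1.5-fold higher with acetaldehyde. On the deposited series table the miR-17/92 median with acetaldehyde was 0.46 and the members' median with ethanol -0.046. That ethanol median was -0.090 with cyclic loess and 0.0094 when arrays were scaled to the median of the detected microRNAs, which put 4 members at least 1.5-fold above control with acetaldehyde. The first block of spots alone gave 1 such member, and subtraction of the empty-spot median put 1, miR-18b-5p, at least 2-fold higher. The causes were not tested. At 2 and at 5 SDs of the empty spots 6 members were detected on each array, as at 3. The high empty-spot level of the ethanol array limits what can be said of dim arms there.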
